A study of Homo sapiens with 16 samples.

Results

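The genes described here encode apolipoproteins, the protein components of plasma lipoprotein particles, together with an enzyme and a transfer protein that act on those particles. They are APOB, MTTP, APOE, APOH, APOA1, APOA2, APOA4, LCAT, APOC3 and APOM. Members were taken as every probe whose gene symbol in the array's probe table is one of these 10 names. The table holds 10 such probes among 30968, for 8 of the 10 genes. APOB and APOA1 have 2 probes each, and MTTP, APOE, APOH, APOA2, APOA4 and LCAT have 1. APOC3 and APOM have no probe under those symbols and were not analysed here. All 10 probes were above 0 in every sample and entered the tests.

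The measurements are 1-colour microarray intensities from HepG2, a cell line from a human liver tumour that makes and secretes many plasma proteins. Cells were kept without serum for 7 days with elaidic acid, oleic acid or stearic acid, each at 100 µM, or with no added fatty acid (control). Elaidic acid and oleic acid are the trans and cis forms of the same monounsaturated fatty acid, and stearic acid is the saturated acid of the same chain length. Each of the 4 groups has 4 biological replicates, 16 samples in all, and the replicates are cultures of 1 tumour line.

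Lipoproteins carry water-insoluble lipids between tissues. In liver cells, MTTP loads lipid onto APOB while that protein is still being made in the endoplasmic reticulum, and the resulting particle matures into very low density lipoprotein (VLDL) before it is exported. APOA1 and APOA2 are the main proteins of high density lipoprotein (HDL), and LCAT esterifies the cholesterol that HDL takes up.

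The numbers of the arrays, read from the sample labels, form 2 separate ranges, which are named array series A and array series B below. Elaidic acid replicates 2 and 4 were run on series A along with every oleic acid and every control sample. Elaidic acid replicates 1 and 3 were run on series B along with every stearic acid sample. Elaidic acid could therefore be set against oleic acid and control within series A, and against stearic acid within series B, in each case with 2 elaidic acid samples against 4. No series holds stearic acid beside control or beside oleic acid, and in those comparisons the acid and the series cannot be told apart directly. A fit with the series as a block reaches them only through the elaidic acid samples. Array medians ran from 19.95 to 76.1, and oleic acid replicate 4 (20.7) and control replicate 1 (19.95) were the dimmest arrays. In these bulk samples, fewer cells of a type and less RNA per cell cannot be told apart.

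The label of a liver line was checked against 13 hepatocyte and fetal liver markers, of which 10 have a probe. Over the 16 samples the AFP probe had a median deposited intensity of 5857, the TTR probe PH_hs_0019852 had 15517 and the SERPINA1 probe PH_hs_0028142 had 5555. The other probes of TTR and SERPINA1 had 1219 and 1407. AMBP had 2626, TF 709, FGB 569, AHSG 457 and VTN 111, and the 2 probes of FGG had 205 and 5.27. The fibrinogen probe of FGA had a median of 0.68, ALB, HP and RBP4 have no probe, and 9 of the markers were tested. Among markers of other cell types, the leukocyte gene PTPRC had a median of 21.9, while the biliary and progenitor keratin KRT19 had 11953, the intestinal gene VIL1 2215 and the monocyte gene CD14 1545. The endothelial gene CDH5 had 366, COL1A1 had 232, and the LUM probe PH_hs_0040682 had 231. The LUM probe PH_hs_0024678 had only 4.23. VWF and PECAM1, also endothelial, were far below CDH5, with VWF at 20.87 and the PECAM1 probes at 14.97 and 9.61. The CDX2 probes had 231.12 and 7.59. COL3A1, FABP2, KDR, KRT7, LYZ and SI each had a value at or below 0.

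Promoter windows are shown for APOA4 and APOH, the members that were called between the trans and cis acids, and for MTTP, the transfer protein on which VLDL assembly rests. Each window runs from 250 bases before to 50 bases after a transcript start in RefSeq on GRCh38.p14, 5′ to 3′ on the gene's strand. Windows were found for 6 of the 10 members (APOA2, APOA4, APOE, APOH, APOM and MTTP). Capitals mark matches, on either strand, to 3 words that belong to regulators of liver genes or to the core promoter. They are AGGTCA (nuclear receptors), AGTCCA (the HNF4 type of nuclear receptor site) and TATAAA (the TATA box), and none of the marked matches overlap. APOA4 lies at chr11:116823255-116823554 on the minus strand, APOH at chr17:66229366-66229665 on the minus strand, and MTTP, on the plus strand, has 2 windows, chr4:99563880-99564179 and, further downstream, chr4:99574574-99574873.
APOA4: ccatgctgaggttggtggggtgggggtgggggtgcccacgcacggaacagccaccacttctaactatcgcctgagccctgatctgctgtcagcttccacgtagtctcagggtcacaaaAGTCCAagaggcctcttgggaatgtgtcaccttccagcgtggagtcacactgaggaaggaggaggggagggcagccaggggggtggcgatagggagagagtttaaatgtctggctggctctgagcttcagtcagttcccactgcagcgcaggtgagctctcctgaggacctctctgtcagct
APOH: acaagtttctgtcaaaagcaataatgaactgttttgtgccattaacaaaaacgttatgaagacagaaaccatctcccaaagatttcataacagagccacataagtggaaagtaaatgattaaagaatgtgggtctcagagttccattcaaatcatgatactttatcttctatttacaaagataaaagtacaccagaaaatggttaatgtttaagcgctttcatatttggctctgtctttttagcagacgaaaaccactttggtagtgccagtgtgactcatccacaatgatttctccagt
MTTP, upstream window: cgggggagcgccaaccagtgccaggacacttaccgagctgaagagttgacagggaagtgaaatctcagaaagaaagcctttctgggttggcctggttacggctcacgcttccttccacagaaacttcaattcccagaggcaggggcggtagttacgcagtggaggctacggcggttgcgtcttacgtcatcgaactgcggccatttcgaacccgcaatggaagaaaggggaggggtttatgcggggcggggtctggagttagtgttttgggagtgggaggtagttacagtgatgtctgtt
MTTP, downstream window: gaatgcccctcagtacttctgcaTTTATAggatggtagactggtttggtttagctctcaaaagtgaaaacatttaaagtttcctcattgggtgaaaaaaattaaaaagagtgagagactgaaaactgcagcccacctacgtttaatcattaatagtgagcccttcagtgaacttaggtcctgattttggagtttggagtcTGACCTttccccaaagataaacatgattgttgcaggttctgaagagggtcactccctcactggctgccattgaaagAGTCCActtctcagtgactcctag

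APOA4 carried AGTCCA 132 bases upstream of its start. The APOH window held none of the 3 words. The upstream MTTP window held none of them either. The downstream MTTP window carried the reverse complement of AGGTCA 50 bases upstream, the reverse complement of TATAAA 227 bases upstream and AGTCCA 26 bases after the start. These matches are common letters. Of 35116 RefSeq promoter windows of the same length, 13.8% held AGGTCA, 11.8% held AGTCCA and 11.5% held TATAAA on either strand. The APOA2 window and the first APOE window held none of the 3.

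Across the 4 groups, the means of APOA4 and APOH were highest with elaidic acid and with stearic acid and lowest with oleic acid. The same held for MTTP, APOE, LCAT, APOA2, the APOB probe PH_hs_0023426 and the APOA1 probe PH_hs_0036613. On the APOA1 probe PH_hs_0035488 control was lowest (14.45), with oleic acid at 14.48. The 2 probes of APOB ran in opposite directions, and PH_hs_0018955 was highest with oleic acid and lowest with stearic acid. Levels are given on the log2 scale after quantile normalisation, where 1 unit is a 2-fold difference, for replicates 1 to 4 in order. Levels of different probes were not compared with each other.

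**Figure D1:**
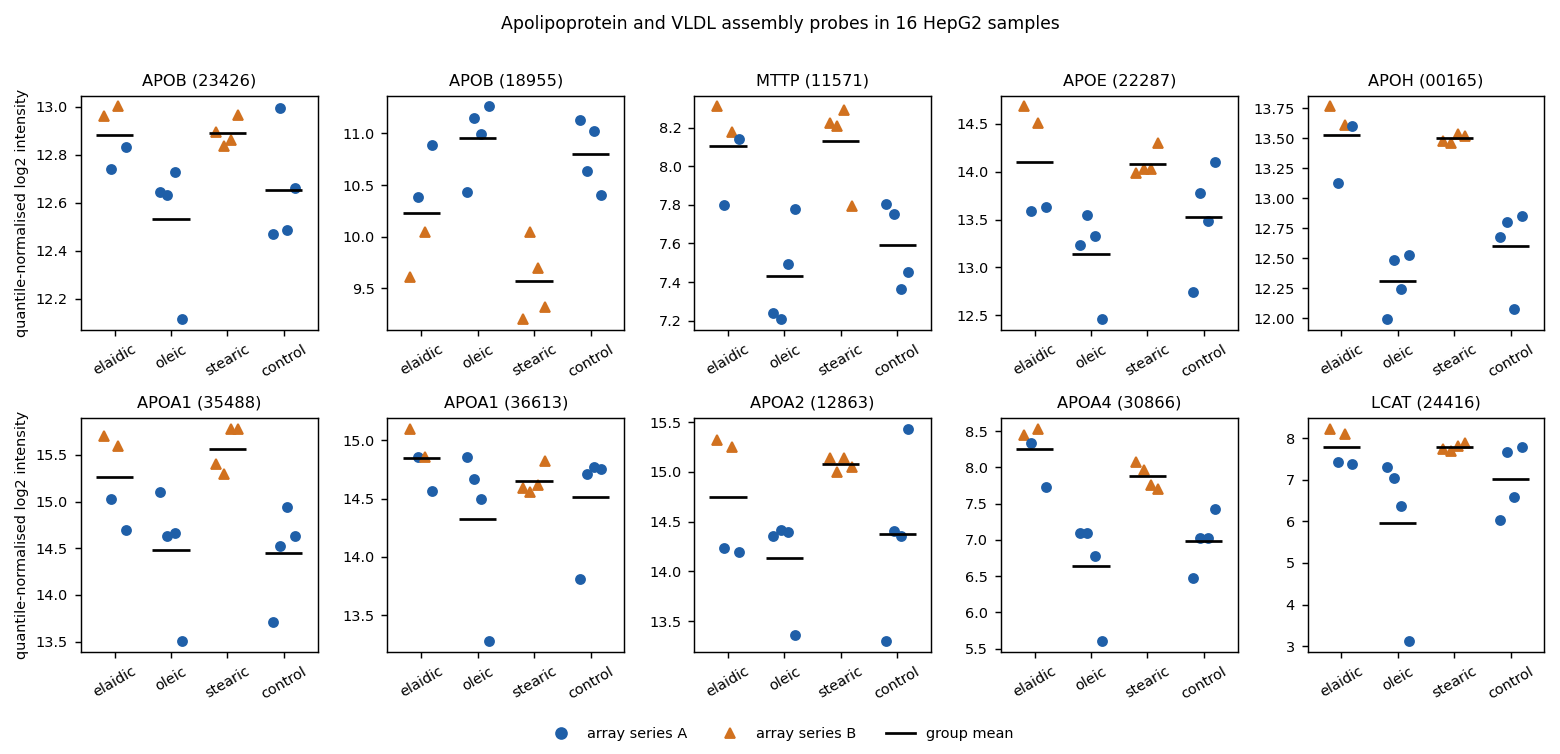
Quantile-normalised log2 intensity (vertical axis, a separate range for each panel) of the 10 member probes in elaidic acid, oleic acid, stearic acid and control samples, with the probe number in brackets. Each point is 1 sample, circles are array series A, triangles are array series B, and bars are means of 4 samples. APOH lies at 13.13 or above in all elaidic acid samples and at 12.53 or below in all oleic acid samples, and the oleic acid point of LCAT at 3.12 stands apart from the other 3.

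APOB is the structural protein of VLDL, 1 copy to a particle. Its probe PH_hs_0023426 had normalised log2 intensities of 12.96, 12.74, 13.002 and 12.83 in elaidic acid samples and 12.65, 12.63, 12.73 and 12.12 in oleic acid samples. It had 12.89, 12.84, 12.86 and 12.97 in stearic acid samples, against 12.47, 12.995, 12.48 and 12.66 in control samples. All elaidic acid values lay above all oleic acid values, and elaidic acid and control overlapped. The APOB probe PH_hs_0018955 had normalised log2 intensities of 9.61, 10.39, 10.05 and 10.89 in elaidic acid samples and 10.43, 11.14, 10.99 and 11.26 in oleic acid samples. It had 9.21, 10.04, 9.70 and 9.32 in stearic acid samples, against 11.13, 10.64, 11.02 and 10.40 in control samples. Here the order was turned round, with the highest mean in oleic acid (10.96 ± 0.37, SD, n = 4) and the lowest in stearic acid (9.57 ± 0.38), against 10.80 ± 0.34 in control. Elaidic acid averaged 10.23 ± 0.54 on this probe, and its samples of series B (9.61 and 10.05) were lower than those of series A (10.39 and 10.89).

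MTTP, the microsomal triglyceride transfer protein, is the limiting chaperone of APOB lipidation and had group SDs of 0.22 to 0.26. MTTP had normalised log2 intensities of 8.31, 7.80, 8.18 and 8.14 in elaidic acid samples and 7.24, 7.21, 7.49 and 7.78 in oleic acid samples. It had 8.22, 8.21, 8.29 and 7.80 in stearic acid samples, against 7.80, 7.75, 7.36 and 7.45 in control samples. The means were 8.11 ± 0.22 with elaidic acid, 7.43 ± 0.26 with oleic acid and 8.13 ± 0.22 with stearic acid, against 7.59 ± 0.22 in control (SD, n = 4 each). All elaidic acid values lay above all oleic acid values, while elaidic acid and control met at 7.80.

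APOE, the ligand by which VLDL remnants are taken up by receptors, varied with array series within the elaidic acid group. APOE had normalised log2 intensities of 14.68, 13.58, 14.51 and 13.63 in elaidic acid samples and 13.24, 13.55, 13.32 and 12.46 in oleic acid samples. It had 13.98, 14.03, 14.02 and 14.30 in stearic acid samples, against 12.75, 13.78, 13.48 and 14.10 in control samples. The series B samples of elaidic acid were at 14.68 and 14.51, and those of series A were at 13.58 and 13.63. The series A values exceeded the highest oleic acid value of 13.55, and lay within the control range.

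APOH, or beta-2-glycoprotein I, is a phospholipid-binding plasma protein that circulates partly on lipoproteins. APOH had normalised log2 intensities of 13.76, 13.13, 13.61 and 13.61 in elaidic acid samples and 11.996, 12.49, 12.25 and 12.53 in oleic acid samples. It had 13.48, 13.46, 13.54 and 13.52 in stearic acid samples, against 12.68, 12.80, 12.08 and 12.85 in control samples. Every elaidic acid and every stearic acid sample was above every oleic acid and every control sample. The stearic acid samples were the tightest group of any member, 13.50 ± 0.03 (SD, n = 4).

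APOA1 is the scaffold of HDL and activates LCAT. Its probe PH_hs_0035488 had normalised log2 intensities of 15.70, 15.03, 15.60 and 14.70 in elaidic acid samples and 15.10, 14.63, 14.67 and 13.51 in oleic acid samples. It had 15.40, 15.30, 15.78 and 15.78 in stearic acid samples, against 13.71, 14.52, 14.94 and 14.63 in control samples. The elaidic acid samples of series B were the higher ones, and elaidic acid overlapped with oleic acid and with control. On the deposited scale this probe passed 60000, the limit taken as near saturation, in elaidic acid replicates 1 (62232) and 3 (64546) and in stearic acid replicates 3 (65454) and 4 (65613). Stearic acid replicate 1 was just under it at 59490. No other member probe exceeded 60000. The APOA1 probe PH_hs_0036613 had normalised log2 intensities of 15.10, 14.85, 14.86 and 14.57 in elaidic acid samples and 14.86, 14.67, 14.50 and 13.28 in oleic acid samples. It had 14.59, 14.56, 14.61 and 14.82 in stearic acid samples, against 13.81, 14.71, 14.77 and 14.75 in control samples. The 4 group means of that probe lay between 14.33 (oleic acid) and 14.84 (elaidic acid), and its stearic acid samples overlapped with control.

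**Figure D2:**
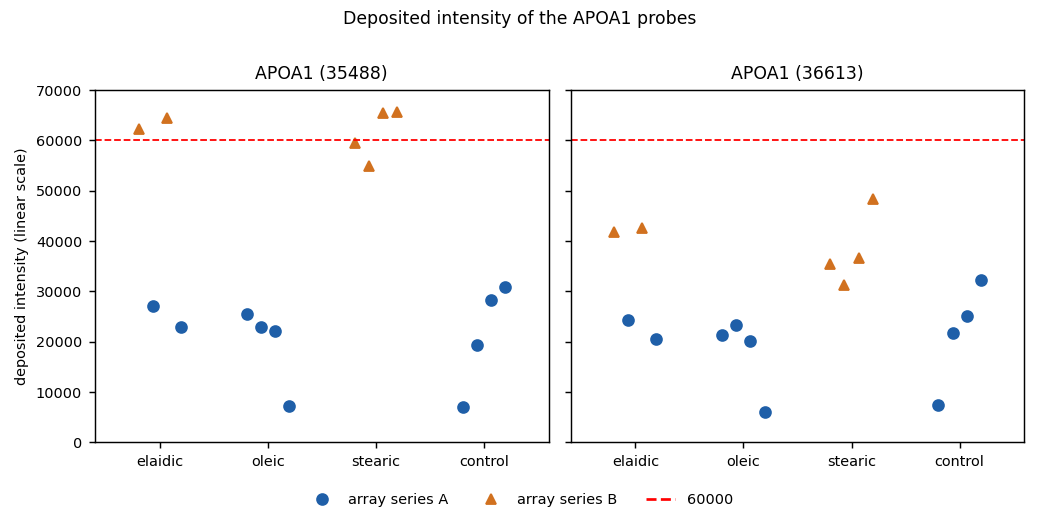
Deposited intensity (linear scale, not normalised) of the APOA1 probes in each sample, with the probe number in the panel title. Circles are array series A, triangles are array series B, and the dashed line marks 60000. On probe PH_hs_0035488, 4 samples lie above the line, all of them from series B, and the highest is stearic acid replicate 4 at 65613.

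APOA2 is the other main HDL protein. APOA2 had normalised log2 intensities of 15.32, 14.24, 15.25 and 14.19 in elaidic acid samples and 14.35, 14.42, 14.40 and 13.36 in oleic acid samples. It had 15.14, 15.003, 15.14 and 15.05 in stearic acid samples, against 13.30, 14.41, 14.35 and 15.44 in control samples. In elaidic acid the series B samples (15.32 and 15.25) stood above the series A samples (14.24 and 14.19). Control spanned the widest range, so that APOA2 overlapped between each acid and control.

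APOA4 is known as an intestinal apolipoprotein of chylomicrons and HDL and is made at lower levels in liver. APOA4 had normalised log2 intensities of 8.45, 8.33, 8.54 and 7.72 in elaidic acid samples and 7.10, 7.09, 6.78 and 5.60 in oleic acid samples. It had 8.08, 7.97, 7.76 and 7.70 in stearic acid samples, against 6.48, 7.03, 7.02 and 7.42 in control samples. Its lowest elaidic acid sample, 7.72, was above its highest control sample, 7.42, and above its highest oleic acid sample, 7.10. All stearic acid samples were above all control samples as well. The deposited intensity of the APOA4 probe ran from 24.1 to 498 over the 16 samples.

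LCAT, lecithin-cholesterol acyltransferase, had the largest spread of all members. LCAT had normalised log2 intensities of 8.23, 7.43, 8.11 and 7.38 in elaidic acid samples and 7.30, 7.04, 6.37 and 3.12 in oleic acid samples. It had 7.75, 7.69, 7.81 and 7.87 in stearic acid samples, against 6.04, 7.66, 6.58 and 7.77 in control samples. Oleic acid replicate 4 had a deposited intensity of 5.35 on this probe, the lowest of the 16 samples, whose highest value was 384. The elaidic acid samples were all above the oleic acid samples, and control ran across both.

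Elaidic acid against oleic acid asks whether the trans and cis forms of 1 fatty acid differ. APOA4 and APOH rose with elaidic acid relative to oleic acid, by 1.62 ± 0.32 for APOA4 (SE, adjusted p = 0.0462) and by 1.21 ± 0.22 for APOH (adjusted p = 0.0340) on the log2 scale. They were 2 of 10 member probes, and 0.301% of all 22939 tested probes were called higher in this comparison, with 0.318% called in either direction. These p-values come from limma, with Benjamini-Hochberg adjustment over all tested probes. The 95% confidence interval of the difference was 0.93 to 2.30 for APOA4 and 0.74 to 1.69 for APOH, and all 4 elaidic acid samples of each gene exceeded all 4 oleic acid samples.

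The other 8 probes did not pass the test between the trans and cis acids. MTTP differed by 0.68 ± 0.21 (SE, interval 0.23 to 1.13, adjusted p = 0.166 by limma). APOE differed by 0.96 ± 0.34 (interval 0.24 to 1.67, adjusted p = 0.191). LCAT differed by 1.83 ± 0.69 (interval 0.36 to 3.29, adjusted p = 0.206), and by 0.88 without oleic acid replicate 4. The intervals of these 3 genes leave out 0, and the missed threshold does not show that the 2 acids act alike on them. The APOA1 probe PH_hs_0035488 differed by 0.78 ± 0.35, and its interval, 0.03 to 1.53, leaves out 0 as well. The APOA1 probe PH_hs_0036613 differed by 0.52 ± 0.32, APOA2 by 0.62 ± 0.40 and the APOB probe PH_hs_0023426 by 0.35 ± 0.20. The APOB probe PH_hs_0018955 was the exception to the direction, with a difference of -0.72 ± 0.30 (adjusted p = 0.230). Its interval, -1.36 to -0.08, also leaves out 0. Such intervals are not rare here, as the unadjusted p by limma was under 0.05 for 7 of 10 member probes and for 4342 of the 22939 tested probes. In all, 9 of 10 member differences were above 0, with a median of 0.73, against 42.9% above 0 and a median of -0.13 over all tested probes. The direction of these 9 held without normalisation and with median centring. Groups did not overlap, with elaidic acid higher, for 6 member probes (APOA4, APOH, APOE, LCAT, MTTP and APOB probe PH_hs_0023426), a pattern seen in 4.07% of all probes. Some gaps were narrow. The lowest elaidic and highest oleic acid samples were at 12.74 and 12.73 for that APOB probe and 7.80 and 7.78 for MTTP. They were at 13.58 and 13.55 for APOE and 7.38 and 7.30 for LCAT.

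Within array series A, elaidic acid exceeded oleic acid by 1.39 ± 0.39 for APOA4 and by 1.05 ± 0.26 for APOH (SE), with adjusted p-values of 0.408 and 0.282 by limma, so that neither was called. No member passed with the series as a block, where 0.0218% of all probes were called. In that fit 9 of 10 differences were above 0, with a median of 0.43, against 0.006 over all tested probes. The share of all probes above 0 was not counted there. MTTP differed by 0.54 ± 0.25 within the series, LCAT by 1.44 ± 0.85, APOE by 0.46 and APOA2 by 0.08. The APOA4 call was lost without oleic acid replicate 2, 3 or 4 or elaidic acid replicate 1, 2 or 3, with differences of 1.27 to 1.77. The APOH call was lost without any 1 oleic acid sample or without elaidic acid replicate 1 or 3, with differences of 1.11 to 1.28.

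Elaidic acid against control asks what the trans acid does relative to no added acid. No member passed the test in this comparison, in which 0.323% of all probes were called in either direction, and 4 members had an unadjusted p under 0.05, as did 3283 of the 22939 probes. APOA4 differed by 1.27 ± 0.32 (SE, interval 0.59 to 1.96, adjusted p = 0.113 by limma) and APOH by 0.92 ± 0.22 (interval 0.45 to 1.40, adjusted p = 0.102). For both genes all 4 elaidic acid samples lay above all 4 control samples, as did 3.82% of all probes. MTTP differed by 0.51 ± 0.21 (adjusted p = 0.302) and the APOA1 probe PH_hs_0035488 by 0.81 ± 0.35 (adjusted p = 0.320). LCAT differed by 0.77 ± 0.69, APOE by 0.57 ± 0.34, APOA2 by 0.38 ± 0.40, the APOA1 probe PH_hs_0036613 by 0.33 ± 0.32 and the APOB probe PH_hs_0023426 by 0.23 ± 0.20. The APOB probe PH_hs_0018955 differed by -0.56 ± 0.30. The median member difference was 0.54, against -0.10 over all tested probes, and 9 of 10 were above 0, against 43.5% of all tested probes.

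Within series A, APOA4 with elaidic acid differed from control by 1.04 ± 0.39 (adjusted p = 0.584 by limma) and APOH by 0.76 ± 0.26 (adjusted p = 0.520), in a fit that called 0.0392% of all probes. The other members were nearer to 0 within the series, among them APOE at 0.08, APOA2 at -0.16 and both APOB probes, at 0.13 and -0.16. Elaidic acid is compared here with the same control samples as the other acids, so the comparisons with control are not independent of each other.

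**Figure D3:**
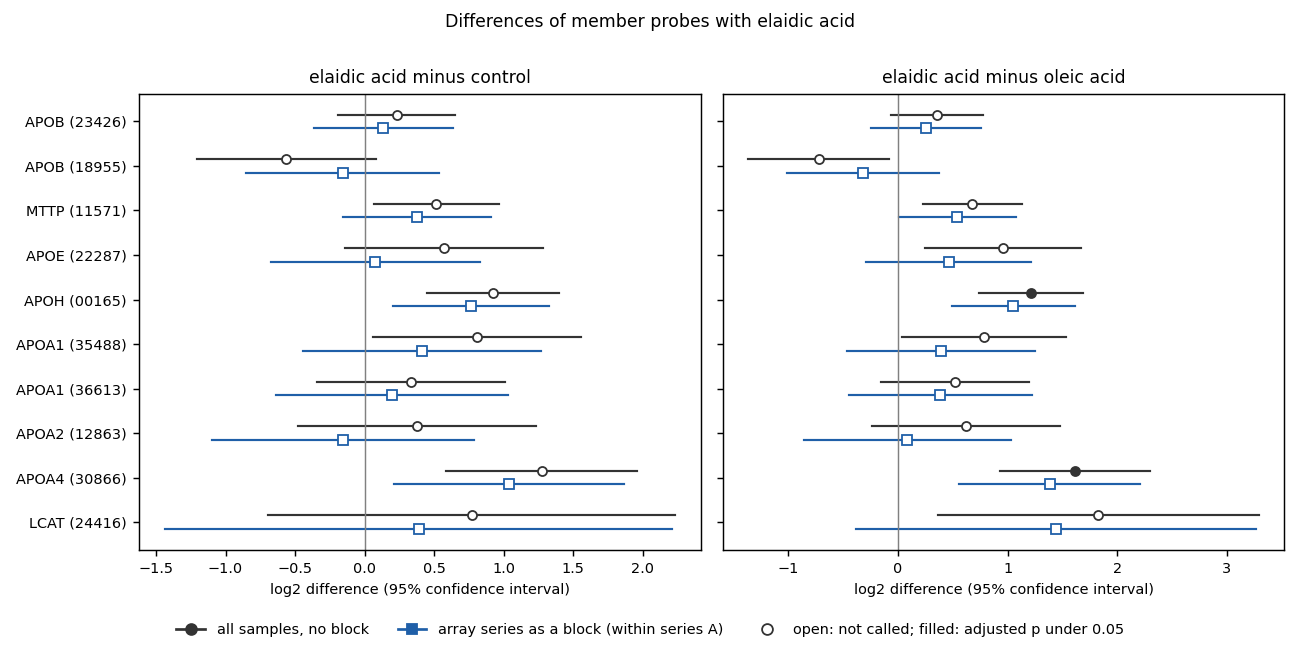
Log2 differences (horizontal axis) of the 10 member probes, elaidic acid minus control on the left and elaidic acid minus oleic acid on the right, with 95% confidence intervals. Circles are the fit without a block and squares the fit with array series as a block, and filled symbols mark an adjusted p under 0.05. APOA4 (1.62) and APOH (1.21) against oleic acid are the filled points, and their blocked values (1.39 and 1.05) are open.

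No member passed the test between oleic acid and control. No probe of the whole array was called (0% of 22939), 602 had an unadjusted p under 0.05, and none of those was a member. Differences of member probes ran from -1.06 ± 0.69 for LCAT to 0.16 ± 0.30 for the APOB probe PH_hs_0018955 (SE). The interval was -1.03 to 0.34 for APOA4, -0.76 to 0.19 for APOH and -0.61 to 0.29 for MTTP, so differences of that size in either direction are within the error of 4 samples against 4. The LCAT interval, -2.52 to 0.41, was the widest. Oleic acid and control samples overlapped for all 10 member probes, and over the array 0.606% of probes were separated with oleic acid higher and 0.628% with oleic acid lower.

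Elaidic acid against stearic acid sets the trans acid against the saturated acid. No member passed the test, 0.397% of all probes were called, and the samples of the 2 acids overlapped for all 10 member probes, where 4.72% of all probes were separated with elaidic acid higher and 7.13% with elaidic acid lower. APOH differed by 0.03 ± 0.22 (SE, interval -0.45 to 0.50) and MTTP by -0.02 ± 0.21 (interval -0.47 to 0.43). APOA4 differed by 0.38 ± 0.32 (interval -0.30 to 1.07), and the APOB probe PH_hs_0018955 by 0.67 ± 0.30 (interval 0.02 to 1.31, adjusted p = 0.328 by limma). Of the 10 differences 6 were above 0, against 54.8% of all probes, but 2 were without normalisation and 4 with median centring. The probes that turned were APOH, APOE, LCAT and APOA1 PH_hs_0036613, and the others kept their sign over these scalings. Over all tested probes, 22.0% of the calls were higher with elaidic acid under quantile normalisation and 6.98% under median centring.

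Within array series B, all 10 member differences between elaidic and stearic acid were above 0, with a median of 0.23, against 0.016 over all tested probes. The share of all probes above 0 in this fit was not counted. None of the 10 was called, where 0.00436% of all probes were. APOA4 differed by 0.61 ± 0.39 (interval -0.21 to 1.44) and APOE by 0.51. For 6 probes (APOA1 PH_hs_0036613, APOA2, APOA4, APOE, APOH and LCAT) both elaidic acid samples of the series were above all 4 stearic acid samples, a pattern that 11.1% of all probes showed.

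Stearic acid against control gave 4 member calls, in a comparison in which 29.8% of all probes were called, 15% higher and 14.8% lower. APOH rose by 0.90 ± 0.22 (SE, adjusted p = 0.0106), the APOA1 probe PH_hs_0035488 by 1.11 ± 0.35 (adjusted p = 0.0294) and APOA4 by 0.89 ± 0.32 (adjusted p = 0.0486) by limma. The APOB probe PH_hs_0018955 fell by 1.23 ± 0.30 (adjusted p = 0.0100). For these 4 probes stearic acid and control samples did not overlap, and over all probes 18.7% were separated with stearic acid higher and 18.9% with stearic acid lower. The APOA1 value includes 2 stearic acid samples over 60000, near the top of the scale, so its size is uncertain. The probes of the same gene disagreed. The APOA1 probe PH_hs_0036613, which stayed below 60000, differed by 0.14 ± 0.32, and the APOB probe PH_hs_0023426 by 0.24 ± 0.20. MTTP differed by 0.54 ± 0.21 (adjusted p = 0.0646), APOA2 by 0.71 ± 0.40, APOE by 0.55 ± 0.34 and LCAT by 0.77 ± 0.69. The member median was 0.63, against -0.18 over all tested probes.

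These calls moved with array series and with scaling. With the series as a block no probe of the array was called, and the values were 0.57 for APOH, 0.43 for APOA4, 0.33 for APOA1 probe PH_hs_0035488 and -0.42 for APOB probe PH_hs_0018955. Without normalisation the all-probe median was 0.26 and 92.1% of calls were higher with stearic acid, against 50.3% under quantile normalisation, and the APOB value of -0.52 (adjusted p = 0.282) and the APOA4 value of 1.42 (adjusted p = 0.110) were not called. With median centring APOA4 was at 0.92 and not called (adjusted p = 0.0531). The APOH and APOB calls held without any 1 sample, with differences of 0.73 to 0.98 for APOH and -1.38 to -1.10 for APOB. The APOA1 call was lost without control replicate 1 or stearic acid replicate 1, 3 or 4, at 0.86 to 1.18, and the APOA4 call was lost without any 1 sample other than control replicate 4, at 0.72 to 0.95.

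**Figure D4:**
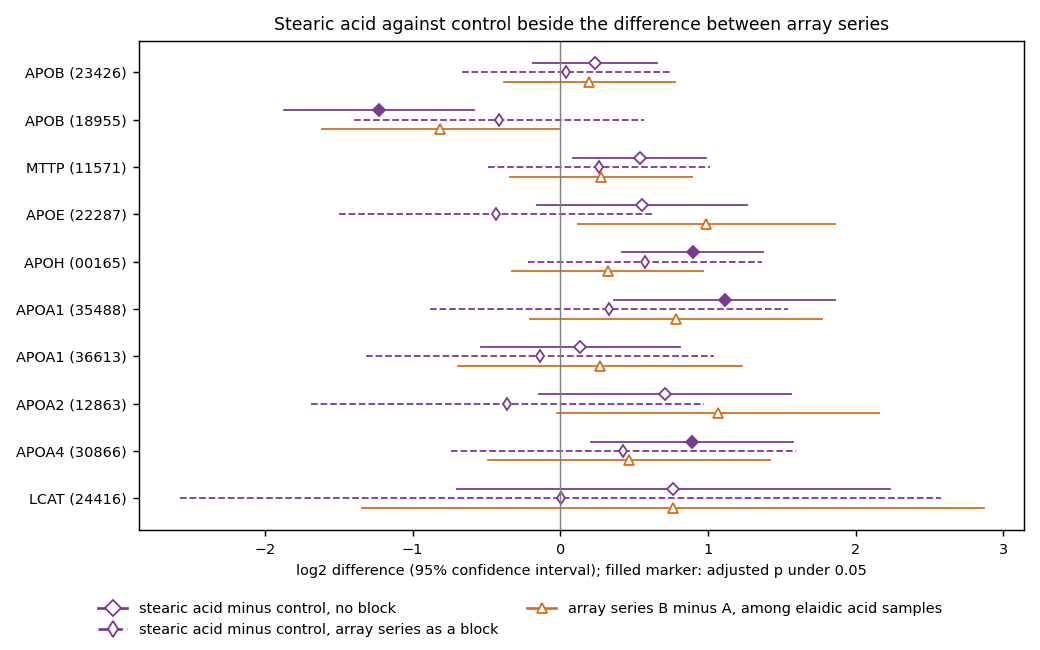
Log2 differences (horizontal axis, with 95% confidence intervals) of the 10 member probes for stearic acid minus control without a block (wide diamonds) and with array series as a block (narrow diamonds, dashed), beside array series B minus series A among the elaidic acid samples (triangles). Filled symbols mark an adjusted p under 0.05. The filled points are APOH (0.90), APOA4 (0.89), APOA1 probe PH_hs_0035488 (1.11) and APOB probe PH_hs_0018955 (-1.23), and APOE and APOA2 have larger values between the series (0.99 and 1.07) than between the groups (0.55 and 0.71).

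The difference between the series among the elaidic acid samples alone had the same sign as stearic acid minus control for all 10 probes. The share of all probes with matching signs was not counted, so this is not a result about the members. The difference between the series was 0.78 ± 0.46 for the APOA1 probe PH_hs_0035488, 1.07 ± 0.51 for APOA2, 0.99 ± 0.41 for APOE and -0.81 ± 0.37 for the APOB probe PH_hs_0018955 (SE, 2 samples against 2 in the fit over all samples). For APOA4 it was 0.46 ± 0.45 and for APOH 0.32 ± 0.30. None of these was called, and 4.05% of all probes were.

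Oleic acid against stearic acid gave 7 member calls, where 39.5% of all probes were called, 21% higher and 18.4% lower with oleic acid. APOH fell by 1.18 ± 0.22 (SE, adjusted p = 0.0027), APOA4 fell by 1.24 ± 0.32 (adjusted p = 0.0110) and MTTP by 0.70 ± 0.21 (adjusted p = 0.0207) by limma. The APOA1 probe PH_hs_0035488 fell by 1.09 ± 0.35 (adjusted p = 0.0268), APOE by 0.94 ± 0.34 (adjusted p = 0.0386) and LCAT by 1.82 ± 0.69 (adjusted p = 0.0471). The APOB probe PH_hs_0018955 rose by 1.39 ± 0.30 (adjusted p = 0.0048). APOA2 differed by -0.95 ± 0.40 (adjusted p = 0.0687). The APOA1 size is uncertain here too, since 2 of its stearic acid samples exceeded 60000. Oleic acid samples lay below all stearic acid samples for 8 member probes and above them for 1, and over the array 21.2% of probes were separated with oleic acid lower and 23.5% with oleic acid higher. LCAT was at -0.87 without oleic acid replicate 4 and no longer called. Without normalisation 5.87% of all calls were higher with oleic acid, against 53.3% under quantile normalisation, and the all-probe median was -0.39 against 0.21. The APOB value of 0.59 (adjusted p = 0.207) and the LCAT value of -2.37 (adjusted p = 0.0732) were then not called.

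With array series as a block no member passed the test between oleic and stearic acid. APOH was at -0.86 and APOA4 at -0.77, while APOE was at 0.05 and APOA2 at 0.12, on the other side of 0. Calls were also lost without single samples. Without oleic acid replicate 4, APOA1 probe PH_hs_0035488 (-0.76), APOE (-0.71) and LCAT were not called. Without oleic acid replicate 1, APOE (-0.97) was not called. Without replicate 2, MTTP (-0.63) was not called, and without replicate 3, LCAT (-1.96) was not called. APOE (-0.97 to -0.87) and LCAT (-1.86 to -1.79) were lost without any 1 stearic acid sample, MTTP without stearic acid replicate 1 (-0.67) or 3 (-0.64), and that APOA1 probe without stearic acid replicate 3 (-1.02) or 4 (-1.03). APOA4, APOH and the APOB probe were called without any 1 sample.

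Other genes of lipoprotein metabolism were read from lists of 1 probe per gene. Of 18 tested partners of VLDL assembly and export, none was called for elaidic acid against oleic acid or against control. The nearest was SURF4, a cargo receptor that carries lipoproteins out of the endoplasmic reticulum, with a difference of 1.07 ± 0.22 (SE, adjusted p = 0.0559 by limma) from oleic acid and 0.94 ± 0.22 (adjusted p = 0.0932) from control. Within series A the SURF4 values were 1.01 and 0.88. The list's median difference was 0.26 from oleic acid and 0.31 from control. Stearic acid against control had 3 calls up and 1 down of 18 in this list, a smaller share than the 29.8% of all probes. Among them SEC13, a coat protein of export vesicles, rose by 2.09, PLA2G12B, a catalytically inactive relative of phospholipases needed for VLDL secretion in mice, rose by 1.37, and MIA3, which helps bulky cargo leave, fell by 1.37. With array series as a block none was called, and the values were 0.45 for SEC13, 1.15 for PLA2G12B and -0.16 for MIA3.

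Of 5 other apolipoproteins tested, none was called for elaidic acid. CLU, also called apolipoprotein J, differed by 0.87 ± 0.30 from control (SE, adjusted p = 0.228 by limma). APOO, a mitochondrial protein in spite of its name, differed by 2.79 ± 0.94 from oleic acid (adjusted p = 0.180). CLU rose with stearic acid relative to control by 1.74 ± 0.30 and was 1.91 with the series as a block, not called there. For HDL maturation, lipases and lipid transfer, 8 genes were tested and none was called for elaidic acid, the nearest being the cholesterol exporter ABCA1 at 0.82 ± 0.36 from oleic acid and hepatic lipase, LIPC, at 0.42 ± 0.22 from control. LIPC rose by 0.87 ± 0.22 with stearic acid relative to control (adjusted p = 0.012), and was 1.15 with the series as a block, not called there.

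Of 6 tested lipoprotein receptors and regulators, none was called for elaidic acid. The heparan sulphate carrier SDC1 differed by 1.05 ± 0.34 from oleic acid and the VLDL receptor VLDLR by 1.30 ± 0.51 from control (SE). With stearic acid relative to control, 29.8% of all probes were called, 15% higher and 14.8% lower. The receptor list had 3 calls up and 1 down of 6, and SDC1 rose by 1.56, LRP1 by 1.22 and VLDLR by 1.78. With array series as a block none was called, and the values were 0.97 for SDC1, 0.92 for LRP1 and 0.22 for VLDLR. Of 13 tested transcription factors that act on apolipoprotein genes, none was called for elaidic acid, and the sterol regulator SREBF2 was nearest, at 1.40 ± 0.38 from control and 1.37 ± 0.38 from oleic acid (adjusted p = 0.135 and 0.134 by limma). HNF4A has no probe under that symbol and was not analysed here. The stearic acid comparison had 4 calls up and 4 down in that list, with NR0B2 at 0.76, SREBF2 at 1.35 and NR2F1 at -1.45. With array series as a block none was called, and the values were 0.61 for NR0B2, 0.48 for SREBF2 and -0.32 for NR2F1.

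Values of the liver line's markers are given beside those of the members. For elaidic acid all 9 tested hepatocyte and fetal liver markers were above 0 against oleic acid, with a median of 1.05, and against control, with a median of 1.31. Over all tested probes 42.9% were above 0 against oleic acid and 43.5% against control, and 0.318% and 0.323% were called. TTR, the plasma carrier of thyroxine and retinol-binding protein, was the 1 marker called, and rose by 1.82 ± 0.28 relative to oleic acid (adjusted p = 0.0151 by limma) and by 1.73 ± 0.28 relative to control (adjusted p = 0.0140). Within series A the marker medians were 0.74 and 0.70, and TTR was not called. The summed normalised level of the 9 markers ran from 41781 to 89917 in elaidic acid samples, from 10909 to 27113 in oleic acid samples and from 57000 to 71339 in stearic acid samples, against 11848 to 34198 in control samples. Against control, 7 of the 9 were called higher with stearic acid, among them TF, VTN and AHSG at 3.18, 2.49 and 1.71. Over all probes 15% were called higher in this comparison, and 29.8% in either direction. With array series as a block none of the list was called, and TF was at 1.69 and VTN at 1.68. The 10 tested markers of other cell types had median differences of -0.19 for elaidic against oleic acid and -0.15 against control, with none called. Their summed level ran from 11873 to 20646 in elaidic acid samples, from 13200 to 18896 in oleic acid samples and from 22753 to 24640 in stearic acid samples, against 10380 to 20004 in control samples. This sum follows the brightest probe of the list, that of KRT19. For stearic acid against control the list's median difference was -0.32, against -0.18 over all tested probes, so the higher sum is not a rise of the list. The 6 tested reference genes had medians of 0.83 and 0.53 in the same elaidic acid comparisons and 0.22 and 0.19 within series A, with none called. The part of these marker differences in the members' differences was not tested.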

How the data were processed

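The values were deposited as background-subtracted intensity on a linear scale, 1 value per probe and sample, with no scaling between samples. The labels name 2 technical arrays per sample and the dye Cy5, per the labels' protocols. How the authors combined the technical arrays and corrected the background is not given in the sources used here. All 16 value columns matched a sample title.

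Values were log2-transformed. Of 30968 probes, 8029 (25.9%) had at least 1 sample at or below 0 and were not tested, and the other 22939 were quantile normalised. Each of 6 contrasts was fitted on all 16 samples by lmFit and eBayes of limma (version 3.58.1, R version 4.3.3) with two-sided p-values. Calls were made where the Benjamini-Hochberg adjusted p was under 0.05. The fit was tested on simulated data. Errors are standard errors of the fit and intervals its 95% intervals. The number of arrays limits the precision. Python 3.11.15 and its matplotlib 3.10.9 made the figures.

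Of the probes, 17397 had 1 symbol, 0 had several and 13571 had none, and 2645 symbols were updated through RefSeq. The table names no genome build, and only RefSeq promoter windows carry coordinates. All member probes are named. Some items of the other lists are not reported here. Of each other list the probe of highest mean intensity stands for a gene, and at most the 3 calls of smallest p are named, or the 1 of smallest p where none was called. The members and lists were chosen with earlier results of these data known. Same-numbered replicates did not vary together more than other pairs did. Over 24 pairs of same-numbered samples, correlations of their deviations ran from -0.46 to 0.36, with a median of -0.05. Replicate number was not used as a block in the main fit. The highest correlation among pairs of different number, 0.47, was between control replicate 1 and oleic acid replicate 4, the dimmest arrays. Deviations thus also go with the array, and this check cannot exclude that same-numbered cultures belong together. Alternatives covered normalisation, dim and near-saturated probes, blocks, 1 probe per gene, the samples fitted and each left-out sample.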

Additional observations from a re-analysis of the deposited data

Results flagged for a closer look

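Of 40 sets of 4 replicates (10 member probes in 4 groups), 5 held a sample set apart from the other 3 by more than Dixon's 95% limit, and about 1 in 20 sets pass that limit by chance. On the normalised log2 scale, APOA1 probe PH_hs_0036613 was at 13.81 in control replicate 1, with the other control samples at 14.71 to 14.77. APOA2 was at 13.36 in oleic acid replicate 4, with the others at 14.35 to 14.42, and APOB probe PH_hs_0023426 was at 12.12 in the same sample, with the others at 12.63 to 12.73. These 2 samples were the arrays of lowest median intensity. APOE was at 14.30 in stearic acid replicate 4, with the others at 13.98 to 14.03. MTTP was at 7.80 in that sample, with the others at 8.21 to 8.29.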

How the results depend on the processing

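The 10 member probes gave no call for oleic acid against control and for elaidic against stearic acid under all alternatives run. For elaidic acid against control the count was 0, and 2 (APOA4 and APOH) with an offset of 50 or without the dimmest 50% of probes. For elaidic against oleic acid the count was 2. It was 1 with median centring and 0 without normalisation, with array series as a block, with the replicate block, on only the 2 groups compared, and without the 2 dimmest arrays, a setting chosen after seeing the data. Leaving out 1 sample gave 0 to 2. For stearic acid against control the count was 4, and 0 with array series as a block, 3 with the replicate block and 2 to 5 without 1 sample. For oleic against stearic acid it was 7, and 0 with array series as a block, 5 with the replicate block, 4 without the 2 dimmest arrays and 3 to 6 without 1 sample. Whether replicate numbers pair the cultures was not settled, and counts of 0 stayed at 0 with the replicate block.

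Signs turned under some settings, and among these only APOE for oleic against stearic acid had been called. With array series as a block, APOA2 was at -0.16 for elaidic acid against control, and for stearic acid against control APOA2 was at -0.36, APOE at -0.43 and APOA1 probe PH_hs_0036613 at -0.14. In that fit elaidic against stearic acid gave 0.12 for MTTP, 0.20 for APOA2, 0.093 for APOB probe PH_hs_0023426 and 0.085 for APOA1 probe PH_hs_0035488, and oleic against stearic acid gave 0.12 for APOA2 and 0.049 for APOE. Without normalisation, elaidic against stearic acid gave -0.48 for APOH, -0.47 for APOE, -0.32 for LCAT and -0.29 for APOA1 probe PH_hs_0036613, and oleic acid against control gave -0.091 for APOA1 probe PH_hs_0035488. Median centring gave -0.15 for APOH and -0.15 for APOE between elaidic and stearic acid. Without the 2 dimmest arrays, APOA1 probe PH_hs_0036613 was at -0.10 for stearic acid against control and 0.028 for oleic against stearic acid. Leaving out 1 sample in turn also turned signs. For elaidic acid against stearic acid it gave APOB probe PH_hs_0023426 -0.045 to 0.042, APOE -0.17 to 0.19, APOH -0.053 to 0.16, LCAT -0.14 to 0.14, MTTP -0.13 to 0.081. For oleic acid against control it gave APOA1 probe PH_hs_0035488 -0.22 to 0.35, APOA1 probe PH_hs_0036613 -0.42 to 0.16, APOA2 -0.60 to 0.11, APOB probe PH_hs_0023426 -0.19 to 0.015. For oleic acid against stearic acid it gave APOA1 probe PH_hs_0036613 -0.50 to 0.028. For stearic acid against control it gave APOA1 probe PH_hs_0036613 -0.097 to 0.22. The causes were not tested.

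Counts over all probes moved as well. For elaidic acid against control 74 probes were called, and 224 with the offset, 189 without the dimmest probes, 28 with the replicate block, 9 with array series as a block, 41 without the 2 dimmest arrays and 0 without normalisation or on only 2 groups. For elaidic against oleic acid the count was 73, and 209 with the offset, 180 without the dimmest probes, 4 with the replicate block, 5 with array series as a block, 24 without the 2 dimmest arrays, 2 without normalisation and 0 on only 2 groups. Leaving out 1 sample gave 25 to 115 probes against control and 3 to 191 against oleic acid. For elaidic against stearic acid 91 probes were called, and 0 to 49 without 1 sample, 581 with the offset, 294 without the dimmest probes, 304 without the 2 dimmest arrays, 1 with array series as a block, and 0 without normalisation, with the replicate block or on only 2 groups. For stearic acid against control the count was 6825, and 3571 to 8213 without 1 sample, 4459 without the 2 dimmest arrays, 3099 without normalisation and 0 with array series as a block. For oleic against stearic acid it was 9057, and 4766 to 8520 without 1 sample, 5125 without normalisation and 0 with array series as a block. Probes near background and near saturation limit what could be measured, and near saturation this concerns APOA1 probe PH_hs_0035488 alone among members.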

Other observations

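For oleic against stearic acid, whose groups lie in different array series, the same gene lists held these calls by limma, and none was called with array series as a block. Over all probes 39.5% were called in this comparison without the block, 21% higher and 18.4% lower with oleic acid. Other apolipoproteins had 0 higher and 3 lower of 5 with oleic acid, with CLU at -1.29, APOO at -3.03 and APOC1 at -1.75 on the log2 scale, and at -1.46, -2.43 and -0.11 with the block. Partners of VLDL assembly had 1 higher and 5 lower of 18, and HDL maturation genes 1 higher and 2 lower of 8, with the lipid transfer protein CETP at 1.29, and at -0.10 with the block, on the other side of 0. Receptors had 1 higher and 2 lower of 6, and transcription factors 1 higher and 6 lower of 13, with PPARA at 1.17 and MLXIPL at -2.88. With the block PPARA was at 0.73 and MLXIPL at 0.22, where the sign turned. Hepatocyte markers had 7 lower of 9, markers of other cell types 2 higher and 2 lower of 10, and reference genes 1 higher and 5 lower of 6. For stearic acid against control, 29.8% of all probes were called, 15% higher and 14.8% lower. Reference genes had 3 higher and 1 lower of 6, with B2M at 2.49, HPRT1 at 2.97 and YWHAZ at 1.40. With the block these were at 1.07, 0.45 and 0.78. Markers of other cell types had no limma call for stearic acid against control. No list had a call for oleic acid against control or for elaidic against stearic acid.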
